A study of Mus musculus with 10 samples.

Results

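The mouse mammary tumour lines 67NR and 168FARN were compared for their use of intronic polyadenylation (IPA) sites, transcript 3' ends formed inside an intron. The members were 102 sites, in 92 genes, that the authors' deposited tables list both for a comparison with 67NR columns and for one with 168FARN columns, out of 520 distinct sites in all tables of lines. For last-exon reads the members were 102 genes of 449, chosen by gene in the same way. There were 263 sites with 67NR columns and 359 with 168FARN columns, and 13 of the shared sites stood in all 4 tables of lines. The authors tabulated each of these lines against a metastatic line and made no table of 67NR against 168FARN.

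67NR and 168FARN had 2 libraries each, of the 10 libraries of the series. Both are established lines of the 4T1 family, which came from a mammary tumour of a BALB/c mouse. Both were grown in DMEM GlutaMax with 10% FBS and had no other treatment in the labels. The series design calls both non-metastatic, and the labels call both non-invasive. The metastatic relatives 4T07 and 4T1 appear here only as context. Each line stands for itself, so a difference is one between this pair of lines. The labels do not tell separate cultures from repeat preparations, and a p-value then measures only how far these libraries spread, which can be technical. The libraries are bulk RNA, in which fewer cells of a type and less RNA per cell cannot be told apart.

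Cleavage and polyadenylation normally end a transcript in its last exon. When a polyadenylation signal in an intron is used instead, the RNA lacks all downstream exons and can encode a shortened protein or none. The U1 small nuclear ribonucleoprotein, which recognises 5' splice sites, also protects introns from such early ends. The use of an intronic site is therefore read against the last exon of the same gene: usage is the share of IPA reads in the sum of both, as a percent within a library, so that library depth cancels.

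The 4 libraries had 1257753 to 1477288 reads in the deposited peak lists on the 9 chromosomes that all 4 lists cover, with both 67NR libraries above both 168FARN libraries. The peak list of 67NR replicate 2 covers only some of the chromosomes, so the lists were used on these 9 alone. The scale factors of the 4 libraries at the shared sites ran from 0.927 to 1.05 when linked through 4T1, the scaling used below. TMM (a scaling that centres the bulk of the ratios on 0) gave 0.831 to 1.21 on the IPA reads and 0.857 to 1.18 on the last-exon reads, higher in both 67NR libraries, so small differences in the raw reads below depend on the scaling. Replicate peak lists differed by more than sampling noise over peaks joined across libraries. The chi-square per degree of freedom was 19.6 in 67NR and 15.01 in 168FARN. A peak missing from a list counted as 0 reads here, so the value mixes list filtering with replicate spread. No library was counted as a copy of another.

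Usage at the shared sites spanned the whole range in both lines. The median over the 102 sites was 10.7% in 67NR and 7.42% in 168FARN. Both lines were under 5% at 36 sites and over 50% at 17 sites, while 8 sites were over 50% in 1 line only, 5 of them in 67NR and 3 in 168FARN. Across the 102 sites the mean usages of the lines had a Spearman rho of 0.88, given as a description, since sites of 1 library share its depth and 7 genes hold more than 1 site. The sites lay on 20 chromosomes, 55 on the plus and 47 on the minus strand, in intervals of 58 to 4155 bp with a median of 383 bp.

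**Figure D1:**
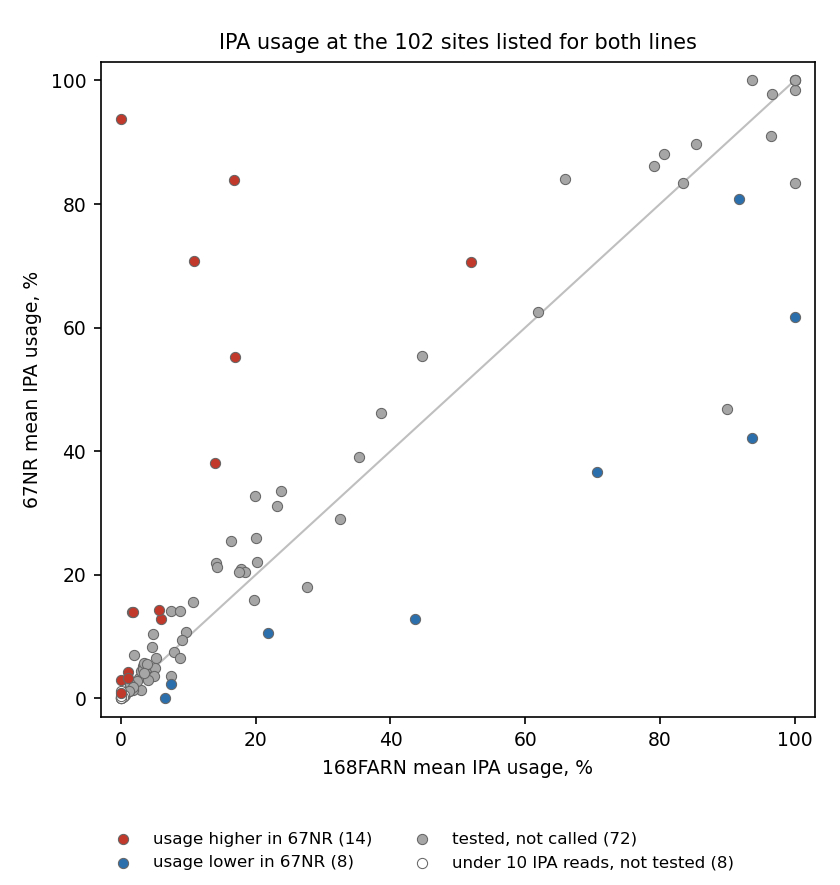
Mean IPA usage in 67NR (vertical axis, %) and 168FARN (horizontal axis, %) at the 102 shared sites, 1 point per site and 2 libraries per mean. Red points were used more in 67NR (14), blue points less in 67NR (8), grey points were tested and not called (72) and open points had under 10 IPA reads (8); most points lie near the line of equal usage, and most called sites lie far from it or near 0.

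Of the 94 sites with at least 10 IPA reads, 22 differed in usage between the lines (edgeR quasi-likelihood test of IPA reads relative to last-exon reads, adjusted p under 0.05), which is 23.4% of the sites tested. Usage was higher in 67NR at 14 sites (14.9%) and lower in 67NR at 8 (8.51%). They lay in 21 genes on 12 chromosomes. At each of the 22, both libraries of a line lay on the same side of both libraries of the other. The libraries of the lines also did not overlap at 23 of the 72 sites not called. At an unadjusted p under 0.05 there were 29 sites. The authors had selected every site for a difference from a metastatic line in 67NR and also in 168FARN, so the adjustment covers sites already selected. Abcb10, Auh, Eif4e2, Nav2, Prickle2, Ptges3, Rin2, Sbno2 and both St6galnac6 sites were listed for 67NR and 168FARN only against different metastatic lines. Each of these sites was called, so their calls are in part bound to how they were listed. The other 8 sites had too few IPA reads to test. Of the 94 tested, 3 had no last-exon read in any of the 4 libraries, so their usage could not be called.

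The difference in usage exceeded 20 percentage points at 9 of the 22 sites and was under 10 points at 8. Of the 22, 14 stayed called under every alternative that tested them, and 8 were lost when 1 or another library was left out. Those 8 are marked below by the highest adjusted p with a library left out. The medians of IPA reads over the 4 libraries were close, 75.5 at called sites and 66 at sites not called. Those of last-exon reads were 564.5 at called sites and 789.5 at sites not called. Median interval lengths were 496 bp at called sites and 330.5 bp at sites not called.

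**Figure D2:**
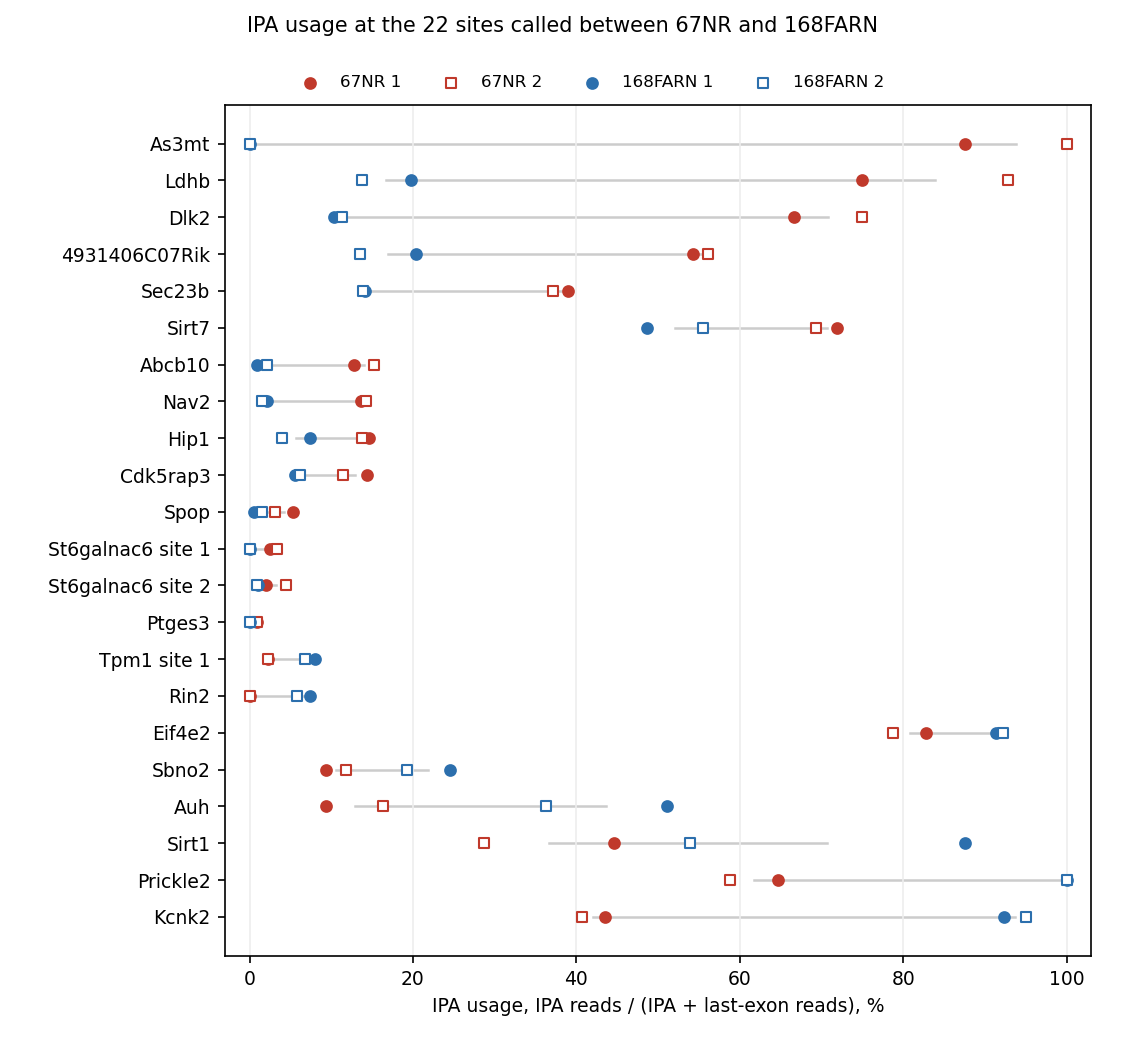
IPA usage (%) in each library at the 22 sites called between 67NR (red) and 168FARN (blue), with circles for replicate 1 and open squares for replicate 2; grey lines join the means. Sites run from the largest excess in 67NR, As3mt at the top, to the largest deficit, Kcnk2 at the bottom, and at no site do the libraries of the lines overlap; sites of 1 gene are numbered by position.

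At 4 sites usage was higher in 67NR with more reads at the site and no called difference in the last exon. Sec23b encodes a subunit of the COPII coat, which carries cargo from the endoplasmic reticulum. Its site on chromosome 2, 144386551 to 144386837, plus strand (mm9), had 167 and 144 IPA reads in 67NR against 47 and 44 in 168FARN. The last exon had 261 and 244 reads in 67NR against 285 and 274 in 168FARN. Usage was therefore 38.1% ± 1.35 in 67NR and 14.0% ± 0.226 in 168FARN (SD, n = 2 each), a log2 difference of 1.92 (SE 0.35, adjusted p = 9.07e-07). The site's own reads were higher in 67NR by 1.69 on the log2 scale (adjusted p = 3.93e-09), while the last exon differed by -0.23 (adjusted p = 0.317).

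4931406C07Rik, whose site lies on chromosome 9, 15106537 to 15106701, minus strand, had 88 and 97 IPA reads in 67NR against 13 and 10 in 168FARN. Its last exon had 74 and 76 reads in 67NR against 51 and 64 in 168FARN. Most of its counted 3' ends were intronic in 67NR and last-exon in 168FARN, with a usage of 55.2% ± 1.24 in 67NR and 16.9% ± 4.81 in 168FARN (SD, n = 2 each, log2 difference 2.61, adjusted p = 2.19e-07).

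Abcb10, a transporter of the inner mitochondrial membrane, had 16 and 20 IPA reads in 67NR against 1 and 3 in 168FARN at its site on chromosome 8, 126481583 to 126481819, minus strand. With 109 and 111 last-exon reads in 67NR against 103 and 134 in 168FARN, usage was 14.0% ± 1.74 in 67NR and 1.58% ± 0.868 in 168FARN (SD, n = 2 each, log2 difference 3.20, adjusted p = 1.85e-05). Ptges3, which encodes the Hsp90 co-chaperone p23, was the weakest-used of the called sites. It had 19 and 18 IPA reads in 67NR against 0 and 1 in 168FARN, beside 2077 and 1976 last-exon reads in 67NR against 1417 and 1538 in 168FARN. Its usage was thus 0.905% ± 0.00267 in 67NR and 0.0325% ± 0.0459 in 168FARN (SD, n = 2 each, adjusted p = 3.48e-06).

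In another 2 genes both the site and the last exon were higher in 67NR, the site by more. Nav2, a neuron navigator family gene, had 35 and 30 IPA reads in 67NR against 3 and 2 in 168FARN on chromosome 7, 56219544 to 56220270, plus strand. Its last exon had 221 and 181 reads in 67NR against 141 and 128 in 168FARN. Usage was 13.9% ± 0.386 in 67NR and 1.81% ± 0.385 in 168FARN (SD, n = 2 each, log2 difference 3.06, adjusted p = 5.11e-06). Spop, the substrate adaptor of a cullin-3 ubiquitin ligase, had 44 and 36 IPA reads in 67NR against 2 and 8 in 168FARN. Its usage was 4.18% ± 1.58 in 67NR and 0.983% ± 0.686 in 168FARN (SD, n = 2 each, adjusted p = 0.00128), and the call was lost without 168FARN replicate 1 (adjusted p = 0.123).

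At Ldhb, Hip1, Sirt7 and the second St6galnac6 site, the higher usage in 67NR went with fewer last-exon reads, while the reads at the site did not pass the test. The log2 difference at the site was 0.46 at Sirt7 (edgeR, adjusted p = 0.0952) and 0.96 at the second St6galnac6 site (0.170). The last exon of each differed by -0.71. With the replicate block the site of Sirt7 passed (edgeR, adjusted p = 0.019). Ldhb encodes the heart-type subunit of lactate dehydrogenase. The site, on chromosome 6, 142447402 to 142447535, minus strand, had 6 and 13 reads in 67NR against 14 and 8 in 168FARN, ranges that overlap. Its last exon had 2 and 1 reads in 67NR against 57 and 50 in 168FARN. Usage was 83.9% ± 12.6 in 67NR and 16.8% ± 4.19 in 168FARN (SD, n = 2 each, log2 difference 4.83, adjusted p = 4.06e-07). In 67NR the last exon fell by 5.13 on the log2 scale (adjusted p = 1.97e-16), against a difference of -0.30 at the site (adjusted p = 0.724).

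Hip1, a clathrin adaptor that also binds actin, had 12 and 12 IPA reads in 67NR against 19 and 10 in 168FARN on chromosome 5, 135969497 to 135969958, minus strand. Its last exon had 70 and 75 reads in 67NR against 239 and 240 in 168FARN, and usage was 14.2% ± 0.595 in 67NR and 5.68% ± 2.38 in 168FARN (SD, n = 2 each, adjusted p = 0.0223). Sirt7, a nucleolar NAD-dependent deacylase, had 210 and 192 IPA reads in 67NR against 138 and 137 in 168FARN, and 82 and 85 last-exon reads in 67NR against 146 and 110 in 168FARN. Its usage was 70.6% ± 1.84 in 67NR and 52.0% ± 4.86 in 168FARN (SD, n = 2 each, adjusted p = 0.0043). The usage call was lost at Hip1 under DESeq2 (adjusted p = 0.0612) and without either 67NR library or 168FARN replicate 2 (adjusted p up to 0.159) and at Sirt7 without 168FARN replicate 1 (adjusted p = 0.087). The last-exon call of Sirt7 was itself lost under DESeq2 (adjusted p = 0.106) and without 168FARN replicate 1 (0.170) or either 67NR library (0.055 and 0.056).

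Dlk2, a non-canonical Notch ligand of the delta-like family, had fewer reads in 67NR at both ends. The site on chromosome 17, 46436948 to 46437264, plus strand, had 8 and 6 reads in 67NR against 17 and 17 in 168FARN. The last exon had 4 and 2 reads in 67NR against 148 and 133 in 168FARN. Usage was 70.8% ± 5.89 in 67NR and 10.8% ± 0.729 in 168FARN (SD, n = 2 each, log2 difference 4.23, adjusted p = 8.95e-07). The last exon fell by 5.58 on the log2 scale (adjusted p = 2.98e-30) and the site by 1.35 (adjusted p = 0.0438), a call at the site that was lost with the replicate block (adjusted p = 0.0608), under DESeq2 (0.218) and without either 67NR library (0.118 and 0.254).

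As3mt and the first St6galnac6 site had more IPA reads and fewer last-exon reads in 67NR. As3mt encodes the methyltransferase that methylates arsenite. The site, on chromosome 19, 46807273 to 46807496, plus strand, had 7 and 8 reads in 67NR and none in 168FARN, while its last exon had 1 and 0 reads in 67NR against 430 and 412 in 168FARN. Usage was 93.8% ± 8.84 in 67NR (SD, n = 2) and 0% in 168FARN, where a count of 0 allows up to 0.356% over the 2 libraries (adjusted p = 2.01e-25). The 2 lines thus had nearly separate 3' ends for this gene, though 67NR had 16 reads of it in all.

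St6galnac6 encodes a sialyltransferase of ganglioside synthesis. Its first site, on chromosome 2, 32459306 to 32459901, plus strand, had 10 and 11 reads in 67NR and none in 168FARN, where the last exon had 574 and 530 reads. Usage was 2.89% ± 0.617 in 67NR (SD, n = 2) and 0% in 168FARN, which allows up to 0.272% (adjusted p = 3.80e-07). Its second site, at 32471802 to 32472371, had 8 and 15 reads in 67NR against 6 and 5 in 168FARN, against the same last exon. Usage there was 3.22% ± 1.77 in 67NR and 0.985% ± 0.0706 in 168FARN (SD, n = 2 each, adjusted p = 0.0221). The call at the second site was lost under DESeq2 and without 67NR replicate 2 or either 168FARN library (adjusted p up to 0.430). Cdk5rap3, an adaptor of the UFM1 ligase, was the last site higher in 67NR, with 12.9% ± 2.13 in 67NR and 5.88% ± 0.383 in 168FARN (SD, n = 2 each, adjusted p = 0.0297). Neither its site nor its last exon passed alone, and the call was lost under DESeq2 (adjusted p = 0.119), with no filter on low counts (0.052) and without any 1 of the 4 libraries (up to 0.306).

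**Figure D3:**
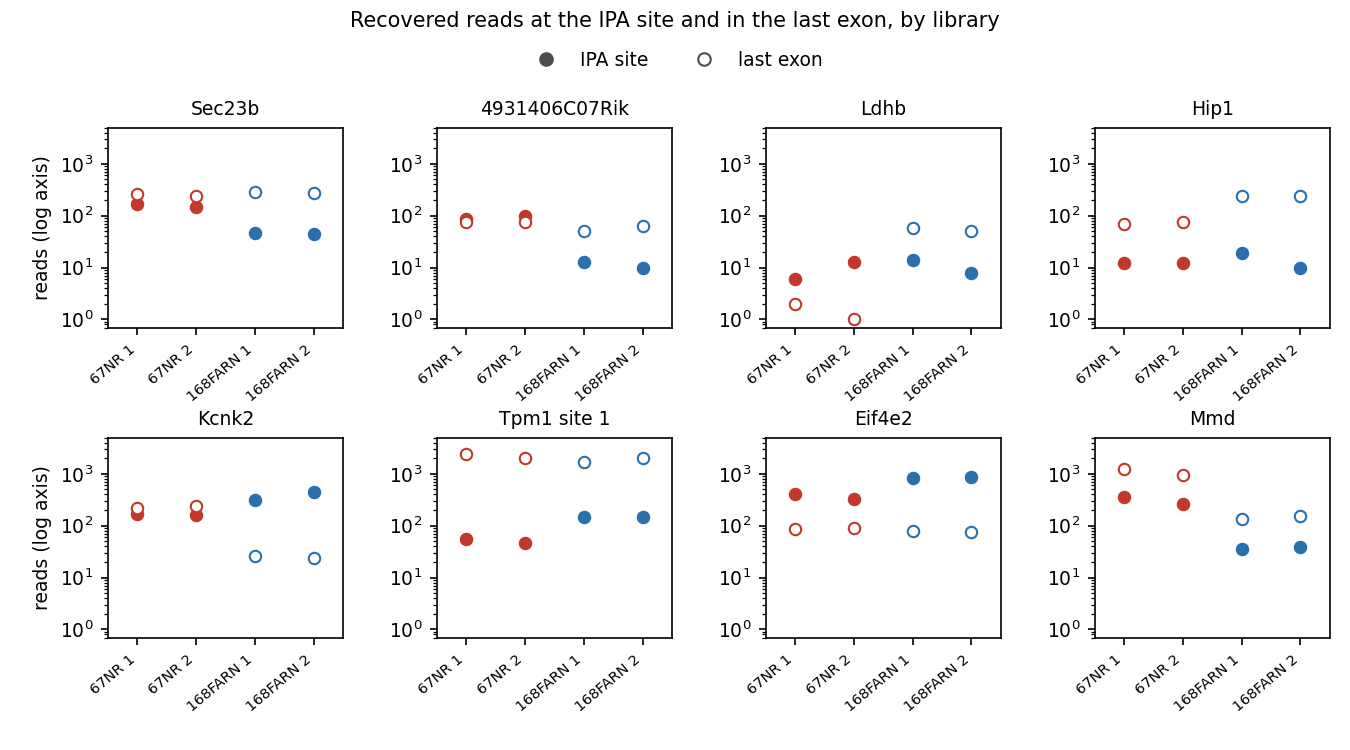
Reads at the IPA site (filled) and in the last exon (open) in each library of 67NR (red, left) and 168FARN (blue, right) for 8 sites, on a log axis. In Sec23b and 4931406C07Rik the IPA reads differ between lines, in Ldhb and Hip1 the last-exon reads, in Kcnk2 both in opposite directions, in the first Tpm1 site and Eif4e2 the IPA reads, and in Mmd both move together.

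Usage was lower in 67NR at 8 sites, and at Tpm1, Eif4e2 and Rin2 this went with fewer reads at the site and no called difference in the last exon. Tpm1 encodes an actin-binding tropomyosin. Its first site, on chromosome 9, 66875487 to 66876408, minus strand, had 55 and 47 reads in 67NR against 147 and 145 in 168FARN. The last exon had 2364 and 2050 reads in 67NR against 1699 and 1975 in 168FARN. Usage was 2.26% ± 0.0229 in 67NR and 7.40% ± 0.794 in 168FARN (SD, n = 2 each, log2 difference -1.79, SE 0.33, adjusted p = 9.80e-07). A second Tpm1 site, at 66876646 to 66877541, had 64 and 70 reads in 67NR against 72 and 81 in 168FARN, and its usage of 2.97% ± 0.471 in 67NR and 4.00% ± 0.089 in 168FARN (SD, n = 2 each) did not pass the test (log2 difference -0.46, 95% interval -1.11 to 0.19).

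Eif4e2 encodes 4EHP, a cap-binding protein that represses translation. Its site on chromosome 1, 89124237 to 89124850, plus strand, was the major 3' end in both lines, with 415 and 329 reads in 67NR against 819 and 884 in 168FARN. The last exon had 86 and 89 reads in 67NR against 78 and 75 in 168FARN. Usage was 80.8% ± 2.92 in 67NR and 91.7% ± 0.619 in 168FARN (SD, n = 2 each, log2 difference -1.38, adjusted p = 0.000373), and the site's own reads fell by 1.28 on the log2 scale in 67NR (adjusted p = 7.85e-05). Rin2, an exchange factor for Rab5, had no IPA reads in 67NR against 5 and 6 in 168FARN, beside 60 and 70 last-exon reads in 67NR against 63 and 97 in 168FARN. In 67NR a count of 0 leaves room for up to 2.31%, while usage was 6.59% ± 1.08 in 168FARN (SD, n = 2, adjusted p = 0.00389). Leaving out either 67NR library ended the usage call (adjusted p up to 0.141), and the call of its IPA reads was lost under DESeq2 (0.0576) and without 67NR replicate 1 (0.083).

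Kcnk2 and Auh had fewer IPA reads and more last-exon reads in 67NR. Kcnk2 encodes TREK-1, a background potassium channel. Its site on chromosome 1, 191101183 to 191101680, minus strand, had 166 and 164 reads in 67NR against 315 and 454 in 168FARN. The last exon had 216 and 239 reads in 67NR against 26 and 24 in 168FARN. Usage was 42.1% ± 1.95 in 67NR and 93.7% ± 1.84 in 168FARN (SD, n = 2 each), with a log2 difference of -4.39 (SE 0.37, adjusted p = 4.97e-26). In 67NR the site fell by 1.29 on the log2 scale (adjusted p = 2.89e-06) and the last exon rose by 3.09 (adjusted p = 1.84e-23).

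Auh encodes an AU-rich RNA-binding protein that is also a mitochondrial enzyme of leucine breakdown. On chromosome 13, 53007942 to 53008435, minus strand, its site had 12 and 19 reads in 67NR against 47 and 37 in 168FARN, and its last exon 116 and 97 in 67NR against 45 and 65 in 168FARN. Usage was 12.9% ± 4.95 in 67NR and 43.7% ± 10.5 in 168FARN (SD, n = 2 each, log2 difference -2.40, adjusted p = 9.07e-07).

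At Prickle2, Sbno2 and Sirt1 the last exon was higher in 67NR and the site was not called lower. Prickle2, a planar cell polarity gene, had 22 and 20 IPA reads in 67NR against 16 and 23 in 168FARN on chromosome 6, 92515396 to 92515897, minus strand. Its last exon had 12 and 14 reads in 67NR and none in 168FARN, so usage was 61.8% ± 4.16 in 67NR (SD, n = 2) and 100% in 168FARN (adjusted p = 2.35e-05). Sbno2, a transcriptional coregulator, had 26 and 29 IPA reads in 67NR against 28 and 20 in 168FARN, and 251 and 216 last-exon reads in 67NR against 86 and 84 in 168FARN. Its usage was 10.6% ± 1.73 in 67NR and 21.9% ± 3.77 in 168FARN (SD, n = 2 each, adjusted p = 0.0154).

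Sirt1, an NAD-dependent deacetylase, had 37 and 23 IPA reads in 67NR against 14 and 7 in 168FARN, and 46 and 57 last-exon reads in 67NR against 2 and 6 in 168FARN. Both ends were higher in 67NR, the last exon by more, and usage was 36.7% ± 11.2 in 67NR and 70.7% ± 23.8 in 168FARN (SD, n = 2 each, adjusted p = 0.00958). The usage call of Sirt1 was lost under DESeq2 and without 67NR replicate 2 or 168FARN replicate 1 (adjusted p up to 0.462), and the call of its IPA reads under DESeq2 (0.122), under TMM on the reads tested (0.061) and without 67NR replicate 1 (0.228) or 168FARN replicate 2 (0.135). The usage call of Sbno2 was lost under DESeq2 and without either 67NR library or 168FARN replicate 1 (adjusted p up to 0.172).

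Read for read, the site alone differed at more members than usage did. IPA reads were higher in 67NR at 29 of 94 sites (30.9%) and lower at 10 (10.6%), 41.5% in all (edgeR, adjusted p under 0.05). Last-exon reads were higher in 67NR in 34 of 96 genes (35.4%) and lower in 16 (16.7%), 52.1% in all. Of the joined peaks of the deposited lists, described further on, 29.9% were called between the lines over those listed in all 4 libraries (15.7% higher and 14.2% lower in 67NR) and 2.95% over all with at least 20 reads. The median log2 difference was 0.49 over the sites and 0.29 over the genes. Scaled by TMM on the reads tested, the medians were 0.06 and 0.04 and the calls were 16 higher and 17 lower for sites and 25 higher and 28 lower for genes. Without 67NR replicate 1 there were 24 calls for sites, and with DESeq2 18.

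**Figure D4:**
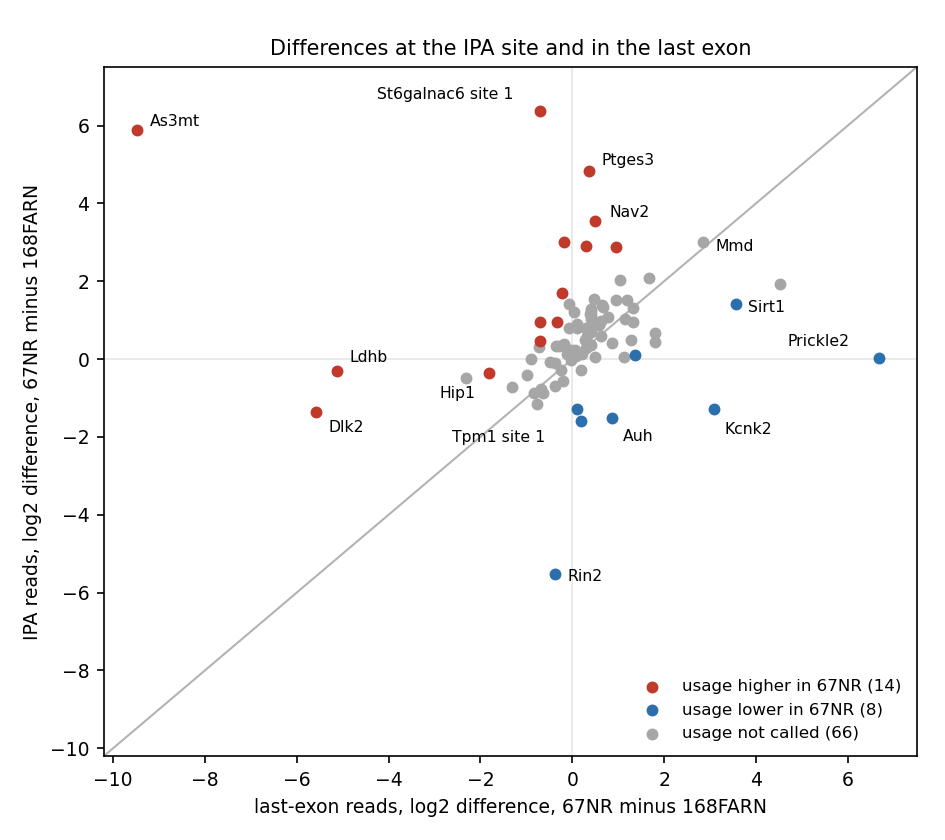
Log2 difference, 67NR minus 168FARN, of IPA reads (vertical axis) against that of last-exon reads (horizontal axis) at the 88 sites with both tested; the line marks equal differences, on which usage is the same. Sites used more in 67NR (red, 14) lie above the line and sites used less (blue, 8) below it, while Mmd lies near it at 3.0 and 2.84; fitted values of genes with a line at 0 reads, such as As3mt, Prickle2 and Rin2, depend on the prior count.

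At 10 sites the site and the last exon were both called higher in 67NR and usage was not called, and at 2, among them the site in Gorasp2, both were called lower. Mmd, a gene named for monocyte to macrophage differentiation, had the largest difference in IPA reads among these sites. Its site on chromosome 11, 90112084 to 90112933, plus strand, had 358 and 261 reads in 67NR against 35 and 38 in 168FARN, and its last exon 1263 and 929 in 67NR against 135 and 154 in 168FARN. The site was 3.0 log2 units higher in 67NR (adjusted p = 2.47e-21) and the last exon 2.84 (adjusted p = 5.86e-28). Usage was 22.01% ± 0.108 in 67NR and 20.2% ± 0.563 in 168FARN (SD, n = 2 each), a log2 difference of 0.16 with a 95% interval of -0.52 to 0.84. Other genes of this kind included Glg1, Pvr, Rab31, Rabgap1, Tmem260 and Tmem63b. Ppp1r13b was also called higher at both ends, but its usage was 46.8% ± 4.53 in 67NR and 90% ± 14.1 in 168FARN (SD, n = 2 each). With 6 IPA reads and 1 last-exon read in 168FARN, its 95% interval of the log2 difference was wide, -5.32 to 0.14.

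In Ece2, Cblc and Nsd1 there was no last-exon read in any of the 4 libraries, so their usage was 100% throughout and only the site's level could be compared. Ece2, an endothelin-converting enzyme gene, had 85 and 91 IPA reads in 67NR against 271 and 243 in 168FARN, a fall of 1.63 on the log2 scale in 67NR (adjusted p = 3.90e-09). Cblc, a Cbl-family ubiquitin ligase, had 16 and 13 reads in 67NR against 1 and 4 in 168FARN (log2 difference 2.40, adjusted p = 0.00122). Nsd1, a histone H3 lysine 36 methyltransferase, had 13 and 12 in 67NR against 3 and 2 in 168FARN (log2 difference 2.18, adjusted p = 0.00229).

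Ahnak, which encodes a very large scaffold protein, held 5 shared sites that are set against 1 last exon, with 44 and 38 reads in 67NR against 40 and 18 in 168FARN. All 5 sites had more IPA reads in 67NR by 0.69 to 1.28 on the log2 scale, and the deepest, on chromosome 19, 9089616 to 9093770, plus strand, had 1719 and 2161 reads in 67NR against 759 and 1050 in 168FARN. Usage at this site was 97.9% ± 0.543 in 67NR and 96.7% ± 2.35 in 168FARN (SD, n = 2 each), and usage was called at none of the 5. The site at 9082148 to 9083864 shows the spread within a line, with 44.3% and 66.4% in 67NR against 28.6% and 60.9% in 168FARN.

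The test resolved usage differences unevenly. Over the 72 sites not called, the 95% interval of the log2 difference had a median width of 1.98. At 11 it lay wholly within 1 unit of 0. The 72 include Ece2, Cblc and Nsd1, whose usage could not be called. Among the narrowest intervals that held 0 were those of Prpf31, the second Tpm1 site and Rrbp1. Prpf31, a splicing factor of the U4/U6 particle, had a usage of 39.0% ± 0.25 in 67NR and 35.3% ± 2.89 in 168FARN (SD, n = 2 each, interval -0.40 to 0.87). Rrbp1, a ribosome-binding protein of the endoplasmic reticulum, had 15.9% ± 1.70 in 67NR and 19.7% ± 2.48 in 168FARN (SD, n = 2 each, interval -1.03 to 0.28).

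Of the 13 sites listed in all 4 tables of lines, 10 could be tested. Among these 1, Hip1, was called, beside 22 of all 94 sites tested (23.4%). How many tables list a site is part of the selection, so these shares are given only as a description. Several of the 13 sites made up nearly all 3' ends of their gene in both lines. With few last-exon reads, 95% intervals of the log2 difference were wide, from -7.05 to 1.71 at Camk1d and -3.48 to 0.75 at Dhx40. Dhx40, a DEAH-box helicase gene, had 91.0% ± 6.14 in 67NR and 96.5% ± 0.686 in 168FARN (SD, n = 2 each), on no more than 6 last-exon reads in a library. Camk1d, a calcium-dependent kinase gene, had 32 and 25 IPA reads in 67NR against 37 and 33 in 168FARN with 1 last-exon read in all, and Gpr126, an adhesion receptor gene, had 9 and 8 in 67NR against 4 and 7 in 168FARN with 1. Spint2, an inhibitor of membrane serine proteases, had 10 and 10 IPA reads in 67NR against 7 and 6 in 168FARN, with 5 and 0 last-exon reads in 67NR and none in 168FARN.

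The 3 of the 13 that could not be tested had few or no IPA reads in both lines. AI506816 had no IPA read in either line, which allows up to 0.601% in 67NR and 1.23% in 168FARN, while usage was 32.2% ± 4.60 in 4T07 and 12.6% ± 0.941 in 4T1 (SD, n = 2 each). The Trps1 site on chromosome 15, 50554556 to 50556845, minus strand, had 0 and 3 IPA reads in 67NR and none in 168FARN. Snrnp35, which encodes a minor spliceosome protein, had 0 and 1 in 67NR and none in 168FARN. Of those tested, Exd2, an exonuclease gene of double-strand break repair, had a usage of 33.6% ± 0.399 in 67NR and 23.7% ± 1.80 in 168FARN, and Slc25a13, a mitochondrial aspartate-glutamate carrier gene, 10.4% ± 0.0983 in 67NR and 4.80% ± 2.63 in 168FARN (SD, n = 2 each). Their 95% intervals of the log2 difference were -0.33 to 1.71 for Exd2 and 0.00 to 2.35 for Slc25a13, and neither passed the adjusted threshold. Tpx2, a spindle assembly factor, had 6.51% ± 2.31 in 67NR and 8.74% ± 1.83 in 168FARN (SD, n = 2 each, interval -1.20 to 0.33).

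Twist2, a basic helix-loop-helix factor of mesenchymal cells, stood at the threshold. It had 3 and 6 IPA reads in 67NR against 7 and 5 in 168FARN, and 74 and 54 last-exon reads in 67NR against 309 and 293 in 168FARN. Usage was 6.95% ± 4.32 in 67NR and 1.95% ± 0.38 in 168FARN (SD, n = 2 each), with an adjusted p of 0.0561 that ran from 0.0406 to 0.640 over its alternatives. In 67NR the last exon fell by 2.32 on the log2 scale (adjusted p = 8.91e-19).

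Among last exons with a larger level in 67NR, those of Kcnk2, Mmd, Prickle2, Sirt1 and Sbno2 are given above. Ppp1r13b, which encodes the p53-binding protein ASPP1, had 22 and 8 reads in 67NR against 1 and 0 in 168FARN (adjusted p = 3.11e-05). Mast4, a microtubule-associated kinase gene, had 431 and 490 in 67NR against 119 and 131 in 168FARN, a log2 difference of 1.80 (SE 0.21, adjusted p = 2.71e-14). Trps1, a GATA-type repressor, had 179 and 361 in 67NR against 59 and 115 in 168FARN (log2 difference 1.55, adjusted p = 2.12e-10). Rab31, a small GTPase of vesicle transport, had 1145 and 896 in 67NR against 386 and 381 in 168FARN (log2 difference 1.33, adjusted p = 1.63e-09). Ddah1, which breaks down asymmetric dimethylarginine, had 540 and 505 in 67NR against 201 and 204 in 168FARN (log2 difference 1.28, adjusted p = 7.45e-09). Plaur, the urokinase receptor, had 494 and 407 in 67NR against 180 and 173 in 168FARN (log2 difference 1.27, adjusted p = 1.47e-08). In each of these 6 genes both 67NR libraries were above both 168FARN libraries. Tmem260 was also called, with 22 and 26 reads in 67NR against 6 and 8 in 168FARN, but not by DESeq2 (adjusted p = 0.106).

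Last exons with a smaller level in 67NR were led by As3mt, Dlk2, Ldhb, Twist2 and Hip1, given above. Plcb3, a phospholipase C gene, had 320 and 337 reads in 67NR against 784 and 741 in 168FARN, a fall of 1.30 on the log2 scale (SE 0.20, adjusted p = 2.70e-09). Mrpl15, a mitochondrial ribosomal protein gene, had 708 and 579 in 67NR against 1165 and 1247 in 168FARN (log2 difference -0.99, adjusted p = 5.85e-06). Pank1, the first enzyme of coenzyme A synthesis, had 88 and 79 in 67NR against 137 and 159 in 168FARN (log2 difference -0.91, adjusted p = 0.000322). Gorasp2, a Golgi stacking protein gene, had 904 and 748 in 67NR against 1408 and 1350 in 168FARN (log2 difference -0.82, adjusted p = 0.000152), and Pigq, of glycosylphosphatidylinositol anchor synthesis, 357 and 294 in 67NR against 551 and 494 in 168FARN (log2 difference -0.77, adjusted p = 0.000335). The libraries of the lines did not overlap in any of these. Without 168FARN replicate 1 the adjusted p was 0.110 for Gorasp2, 0.101 for Pigq and 0.140 for St6galnac6.

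Few genes of the pathway lists had a shared site. Of 32 genes of actin, adhesion and migration, 5 had 6 shared sites: usage was higher in 67NR at Hip1, lower at Prickle2 and the first Tpm1 site, and not called at the others, among them the second Tpm1 site and Gpr126, beside 23.4% called over all sites tested. In the same list, 6 genes had shared last-exon reads and 5 were tested, with 3 higher in 67NR, among them Plaur and Prickle2, and Hip1 lower, beside 35.4% higher and 16.7% lower over all genes tested. The median log2 difference of the 5 was 1.16, beside 0.29 over all genes tested. Of 25 genes of endoplasmic reticulum and Golgi transport, Sec23b alone had a site, used more in 67NR. Of 24 DNA repair genes, Exd2 and Trp53 had 3 sites and no call; Trp53, the p53 gene, had a usage of 1.83% ± 0.663 in 67NR and 1.84% ± 1.26 in 168FARN (SD, n = 2 each), on 6 and 8 IPA reads in 67NR against 3 and 9 in 168FARN. Of 32 cell cycle genes, Tpx2 and E2f1 had last-exon reads. Tpx2 was higher in 67NR (496 and 546 reads against 287 and 410 in 168FARN, adjusted p = 0.0209), and E2f1, a cell cycle transcription factor, lower (545 and 575 against 701 and 727, adjusted p = 0.0482).

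Cell state markers gave a mixed picture. Of 24 mesenchymal genes, 3 had last-exon reads: the chromatin protein gene Hmga2 was higher in 67NR, with 1867 and 2266 reads in 67NR against 785 and 1087 in 168FARN (log2 difference 1.06, adjusted p = 2.10e-06), Twist2 was lower, and the receptor kinase gene Axl was not called, with 4164 and 3388 in 67NR against 3555 and 3342 in 168FARN (log2 difference 0.05, 95% interval -0.38 to 0.47). Of 24 epithelial genes, Spint2 and Trps1 had last-exon reads, and the last exon of Spint2 held 5 reads over both lines. No gene of the fibroblast, immune or endothelial lists, of the cleavage and polyadenylation factors, of the U1 particle or of the Hippo, Wnt and Notch list had a shared site or shared last-exon reads. Of 34 splicing regulators Sfpq had last-exon reads, with 2725 and 2716 in 67NR against 1754 and 2009 in 168FARN (log2 difference 0.45, 95% interval 0.04 to 0.86, adjusted p = 0.0564). So few markers do not check the labelled cell type.

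The metastatic lines did not set 67NR and 168FARN in 1 order. At Kcnk2, usage was 42.1% in 67NR, 66.5% ± 2.18 in 4T07, 84.0% ± 0.159 in 4T1 and 93.7% in 168FARN, and no neighbours in this order overlapped. At Abcb10 usage was 14.0% in 67NR and 1.58% in 168FARN, beside 26.6% ± 1.55 in 4T07 and 0.248% ± 0.35 in 4T1. At Sec23b both metastatic lines were below both others, with 1.72% ± 0.275 in 4T07 and 5.61% ± 1.64 in 4T1, and so were they at Dlk2, with 1.87% ± 0.0742 in 4T07 and 1.1% ± 0.605 in 4T1. At Eif4e2 67NR, with 80.8% ± 2.92, was close to 4T07, with 79.5% ± 3.67, and 168FARN, with 91.7% ± 0.619, to 4T1, with 91.5% ± 1.62 (SD, n = 2 each). These values are from the same tables and were not tested here. Every site was listed for a difference of 67NR and of 168FARN from a metastatic line, so such distances are part of the selection.

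The deposited peak lists cover all 3' ends, not only listed sites. Each list runs through the chromosomes first with fewer, deeper peaks and then again with many shallow ones, and 200 of the 224 sites of the tables of lines on the chromosomes used overlapped a peak of the second run, against 14 for the first. Second-run peaks held 16.1% and 18.9% of reads in 67NR and 13.1% and 14.0% in 168FARN. Both 67NR libraries were thus above both 168FARN libraries, also on 8 of the 9 chromosomes (not on chromosome 16). The means were 17.5% ± 2.02 in 67NR and 13.5% ± 0.648 in 168FARN (SD, n = 2 each), a difference of 3.97 points, or 2.54 without 67NR replicate 2. An exact two-sided permutation test gave p = 0.333, the smallest that 6 splits of 4 libraries allow. Both 67NR libraries were also the deeper ones, and the part of depth in the difference was not tested.

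Peaks missing from a list were not always without reads. Of 46 shared sites on these chromosomes, 5 to 12 per library had reads in the deposited tables and were listed at 0 in that library's peak list. The largest of these, in Rab31, had 40 reads in the table for 67NR replicate 2. Among second-run peaks of at least 100 reads, 83 of 379 in 67NR and 43 of 272 in 168FARN were listed in 1 library of the line only. Over joined peaks listed in all 4 libraries, a choice made after seeing the data, the second-run share was 12.3% ± 0.936 in 67NR and 10.6% ± 0.0324 in 168FARN (SD, n = 2 each), a difference of 1.71 points.

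**Figure D5:**
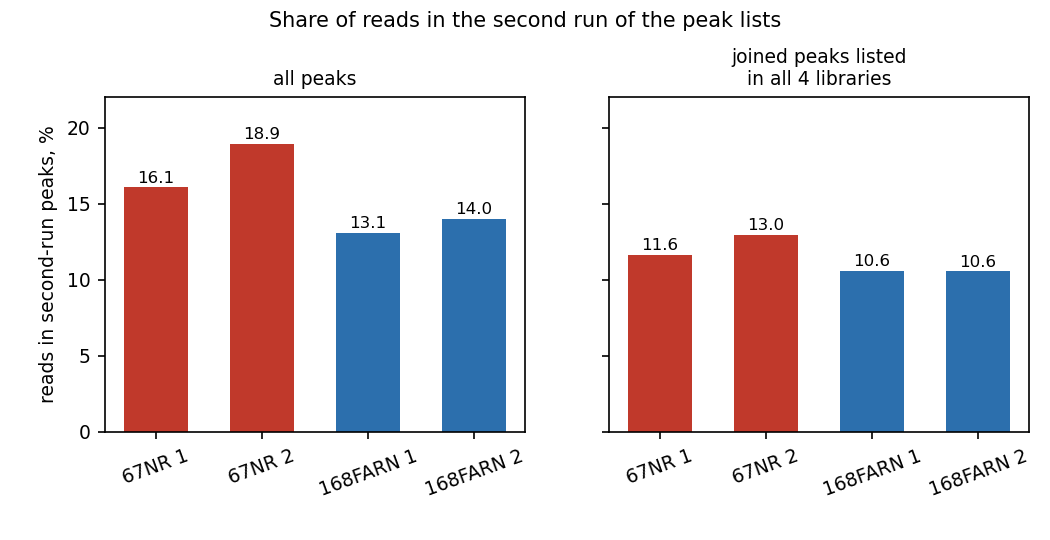
Percentage of peak-list reads that lie in second-run peaks in each library of 67NR (red, left) and 168FARN (blue, right) on the 9 chromosomes used. Over all peaks (left panel) the 67NR libraries stand at 16.1 and 18.9 and the 168FARN libraries at 13.1 and 14.0; over joined peaks listed in all 4 libraries (right panel) the gap is smaller.

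Of 9500 joined peaks with at least 20 reads, 280 were called between the lines (edgeR, adjusted p under 0.05), which is 2.95%, with 124 higher (1.31%) and 156 lower (1.64%) in 67NR. With any 1 of the 4 libraries left out, edgeR called 0 peaks, with 1932 to 2754 at an unadjusted p under 0.05, while DESeq2 on all 4 libraries called 2348. The count also moved with the treatment of missing peaks. Over the 7052 joined peaks listed in all 4 libraries, 2108 were called, or 29.9%, with 1107 higher (15.7%) and 1001 lower (14.2%) in 67NR. Among these, 517 of 2276 second-run peaks were called (22.7%), 348 higher and 169 lower in 67NR, and 1591 of 4776 first-run peaks (33.3%), 759 higher and 832 lower. The median log2 difference was 0.18 in the second run and -0.01 in the first.

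Of the 10 peaks that the naming rule took at intervals of the deposited tables, 7 were listed at 0 in both libraries of a line. They include Rps26, a ribosomal protein gene, with 1981 and 1487 reads in 67NR and a listing at 0 in both 168FARN libraries and in all 4T07 and 4T1 libraries. They also include Nrp2, a semaphorin and VEGF receptor gene, listed at 0 in 67NR with 275 and 334 reads in 168FARN. Cct5, a chaperonin subunit gene, was listed at 0 in 67NR with 143 and 202 reads in 168FARN, and it stood at 160 in 1 4T1 library and at 0 in the other. The other 5 peaks, named by position alone, were likewise listed at 0 throughout a line. On chromosome 14, 27475391 to 27476331, plus strand, for example, the peak was listed at 0 in 67NR and had 1210 and 1357 reads in 168FARN, with 1083 in 1 4T1 library and a listing at 0 in the other. A listing at 0 is therefore not read here as absence. The 3 with reads in every library were Mmd, described above, Ankrd33b, an ankyrin repeat gene, with 279 and 224 reads in 67NR against 49 and 45 in 168FARN, and Speg, a muscle-type kinase gene, with 22 and 17 in 67NR against 158 and 168 in 168FARN.

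The same rule over peaks listed in all 4 libraries, applied after seeing the data, gave 5 peaks in each direction. Higher in 67NR were Mmd, Ankrd33b and Spop, given above, and 2 more. Lrrc20, a leucine-rich repeat gene, had 51 and 32 reads in 67NR against 4 and 2 in 168FARN on chromosome 10, 60950181 to 60950375, plus strand (log2 difference 3.57, SE 0.55, adjusted p = 0.0012). Ccnb1, the mitotic cyclin B1 gene, had 33 and 30 in 67NR against 2 and 4 in 168FARN on chromosome 13, 101550128 to 101550390, minus strand (log2 difference 3.18, adjusted p = 0.00166). Lower in 67NR, beside Speg, were Tmem167, Adk, Txnrd2 and Hira. Tmem167, a secretory pathway gene, had 15 and 18 reads in 67NR against 85 and 55 in 168FARN (adjusted p = 0.0015), and Adk, adenosine kinase, 34 and 19 in 67NR against 97 and 107 in 168FARN (adjusted p = 0.00106). Txnrd2, mitochondrial thioredoxin reductase, had 10 and 16 in 67NR against 50 and 42 in 168FARN (adjusted p = 0.00437), and Hira, a histone H3.3 chaperone, 43 and 34 in 67NR against 117 and 143 in 168FARN (adjusted p = 0.0006). These are reads of the peak alone, with no last exon to set them against.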

How the data were processed

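Poly(A) RNA from 5 µg of total RNA was reverse transcribed with anchored oligo-dT, amplified by 13 PCR cycles, selected for 200 to 300 bp and sequenced as 50-nt single reads, per the labels' protocols. Per the submitters' processing notes, the build was mm9 and the tools were DESeq2 1.4.5, bedtools 2.17.0, SAMtools 1.1 and Bowtie2 2.2.5, with no roles. Per the file headers, the authors deposited, for each IPA site, a normalized read signal of the site and of the last exon in each library, with p-values, adjusted p-values and a log2 fold change. The deposited tables list only sites that the authors called. The authors' peak lists give, as deposited, a read count for each peak after a filter that no header or label describes.

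The deposited signals turned into whole reads in 100% of values (tolerance 0.1 read), since 1 read has a fixed worth per column, and a site gave the same reads in every table. Library scale factors were linked between tables through 4T1. edgeR 4.0.16 (R 4.3.3, quasi-likelihood, Benjamini-Hochberg, adjusted p under 0.05) tested the interaction of line and kind of read for usage, and line alone for IPA and last-exon reads, each with at least 10 reads over the 4 libraries. Peaks were joined by an overlap of 1 bp on a strand and tested with TMM scaling at 20 reads or more. The edgeR fits of usage, IPA reads, last-exon reads and peaks were tested on simulated data. Alternatives were DESeq2 1.42.0, other scalings and filters, a replicate block, leaving out each library, library as a term, stricter listing and 1 site per gene. The members, gene lists and tests were chosen with earlier results of these data known. The text names all called sites, sites in all 4 tables, list members, the 12 largest last-exon differences in each direction, and the 5 narrowest intervals that hold 0; a few of these genes are not reported here. Positions are 1-based on mm9. No mm9 genome or annotation was used here: sites are intronic on the authors' word, and peaks outside the tables have no gene. Intervals and limits from a count of 0 (3 reads) cover counting error only.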

Additional observations from a re-analysis of the deposited data

How the results depend on the processing

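Usage calls numbered 22, and 17 to 23 when a library was left out. They numbered 17 with DESeq2 and 25 with the replicate number as a block, and all 22 stayed called under the block. Entering only sites listed at an adjusted p of at most 0.01 for both lines left 8 calls among 29 sites, since fewer sites were tested. IPA reads gave 39 calls, 40 with the replicate block, 18 with DESeq2, 24 without 67NR replicate 1 and 24 to 33 over the libraries left out. Last-exon reads gave 50 calls, 61 with the replicate block and 39 to 50 with a library left out. Same-numbered libraries had deviations with r = 0.056 over joined peaks, so the numbers were not taken to pair them. The 280 peak calls became 0 with the replicate block (3054 at an unadjusted p under 0.05), 0 without any 1 of the 4 libraries (1932 to 2754), 2348 with DESeq2, 2435 with no filter, 777 with the minimum doubled, 607 with peak-list totals, 1629 over peaks in both libraries of a line, 2108 over peaks listed in all 4 libraries, 942 over the first run alone and 0 over the second run alone (794); the cause was not tested beyond these. TMM on the reads tested is the scaling of the peak fit itself. The second-run difference of 3.97 points was 1.71 over peaks listed in all 4 libraries and 2.54 to 5.39 with a library left out. No named result reversed its sign. Of the 22 called sites, 12 had 20 or more IPA reads in each line, so calls at the others rest on fewer IPA reads in at least 1 line.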
